A study of Mus musculus with 15 samples.

Results

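The Hox genes are the homeobox genes that sit in 4 tight clusters of the mouse genome, Hoxa on chromosome 6, Hoxb on chromosome 11, Hoxc on chromosome 15 and Hoxd on chromosome 2. In total, 38 Hox genes were followed among 22028 protein-coding genes, of which 10 lie in Hoxa, 10 in Hoxb, 9 in Hoxc and 9 in Hoxd. They were taken as a named gene family and not for their values, though earlier results of these data were known at that time. A promoter was counted as carrying a mark when a peak overlapped the window from 1000 bp before to 1000 bp after the 5′ end of the gene, and each cluster was read from its first to its last Hox gene with 20 kb on either side. The 4 windows together span 645 kb.

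The marks were mapped by chromatin immunoprecipitation and sequencing (ChIP-seq) in pooled, hand-picked pancreatic islets of adult male CBA mice after some weeks on their diet. The groups differed by diet. RD mice ate standard chow, HFD mice a high-fat diet, and HFD-O304 mice the same high-fat diet with O304 mixed in, a compound described by the study as an activator of AMP-activated protein kinase (AMPK). All animals were of the same strain with no genetic change, and no group received O304 on chow, so an effect of the compound apart from the high-fat diet is not in the design. H3K27Ac, acetylation of lysine 27 of histone H3, is found where promoters and enhancers are in use, and H3K27Me3, its trimethylation, where Polycomb keeps chromatin silent. There was 1 list of broad peaks per mark and diet, made from 2 merged replicates, so that no value below has a replicate error and no difference between diets could be tested. The lists rested on 83773042 to 95218072 kept fragments for H3K27Ac. For H3K27Me3 they rested on 74870300 (RD), 54166902 (HFD) and 57324419 (HFD-O304).

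Hox genes encode homeodomain transcription factors that give cells their position along the head to tail axis of the embryo, and the order of the genes along a cluster follows the order of the body regions in which they act. Polycomb repressive complex 2, whose catalytic subunit is Ezh2 or Ezh1, writes H3K27Me3 over Hox clusters and keeps members silent where they are not in use. Its targets in mammals are typically rich in CG dinucleotides. A given tissue can hold an active and a silent stretch of the same cluster side by side.

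The start regions of 5 Hox genes are shown because the results turn on them. Among members called in all 3 diets, Hoxa11, Hoxb4 and Hoxd9 had the highest mean H3K27Me3 of their clusters for which a start sequence was at hand. Hoxc4 and Hoxd11 are the members without a call at the 5′ end of the gene in any diet. Each line runs 5′ to 3′ on the strand of the gene from 250 bases before to 50 after a start, is taken from RefSeq on the C57BL/6J reference GRCm38.p6, and has every CG in capitals. The start table held 24 sequences for 22 of the 38 members. The motif searched was CG, which reads the same on both strands.
Hoxa11, chr6:52245761-52246060, minus strand: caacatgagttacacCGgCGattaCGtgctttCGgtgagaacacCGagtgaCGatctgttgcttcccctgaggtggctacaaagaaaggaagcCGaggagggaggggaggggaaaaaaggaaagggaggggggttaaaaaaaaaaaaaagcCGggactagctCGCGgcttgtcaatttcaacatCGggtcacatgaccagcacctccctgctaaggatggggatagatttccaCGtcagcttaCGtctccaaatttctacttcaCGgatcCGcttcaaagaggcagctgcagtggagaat
Hoxb4, chr11:96318017-96318316, plus strand: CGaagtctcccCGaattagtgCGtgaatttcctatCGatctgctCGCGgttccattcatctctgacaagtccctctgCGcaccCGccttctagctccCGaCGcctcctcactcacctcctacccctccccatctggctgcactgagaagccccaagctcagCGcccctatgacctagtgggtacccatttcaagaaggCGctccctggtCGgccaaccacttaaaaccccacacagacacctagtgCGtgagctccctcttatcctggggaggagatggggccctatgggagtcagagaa
Hoxd9, chr2:74697513-74697812, plus strand: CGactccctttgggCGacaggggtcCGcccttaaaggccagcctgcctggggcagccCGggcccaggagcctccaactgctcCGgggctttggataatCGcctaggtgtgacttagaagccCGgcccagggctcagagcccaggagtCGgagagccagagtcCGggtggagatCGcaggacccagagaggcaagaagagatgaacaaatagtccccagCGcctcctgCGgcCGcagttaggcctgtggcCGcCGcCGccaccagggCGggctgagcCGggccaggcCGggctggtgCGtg
Hoxc4, chr15:103034145-103034444, plus strand: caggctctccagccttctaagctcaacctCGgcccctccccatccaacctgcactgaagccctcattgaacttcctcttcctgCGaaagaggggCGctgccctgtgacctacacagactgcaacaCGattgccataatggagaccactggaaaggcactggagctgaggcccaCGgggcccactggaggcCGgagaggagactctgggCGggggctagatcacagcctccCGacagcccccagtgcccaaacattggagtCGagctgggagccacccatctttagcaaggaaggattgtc
Hoxd11, upstream start, chr2:74679308-74679607, plus strand: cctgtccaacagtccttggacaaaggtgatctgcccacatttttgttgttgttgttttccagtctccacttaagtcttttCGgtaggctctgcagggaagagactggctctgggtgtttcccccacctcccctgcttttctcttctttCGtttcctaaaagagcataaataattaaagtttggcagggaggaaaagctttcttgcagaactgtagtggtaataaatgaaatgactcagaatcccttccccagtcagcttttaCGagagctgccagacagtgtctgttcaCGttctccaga
Hoxd11, downstream start, chr2:74682073-74682372, plus strand: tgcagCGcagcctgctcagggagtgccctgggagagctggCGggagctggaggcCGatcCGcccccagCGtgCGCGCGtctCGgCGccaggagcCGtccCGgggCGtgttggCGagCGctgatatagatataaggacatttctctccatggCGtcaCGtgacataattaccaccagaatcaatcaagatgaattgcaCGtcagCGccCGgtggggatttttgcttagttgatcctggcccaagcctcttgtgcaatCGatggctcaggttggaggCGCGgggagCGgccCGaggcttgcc

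These 6 stretches held 15, 14, 20, 9, 4 and 25 CG in the order shown. All 24 Hox start sequences had at least 1 CG, with a median of 14.5, against a median of 7 over 32851 start sequences of the genome. CG itself is common at starts, since 94.6% of all start sequences held at least 1 and 68.6% held 4 or more. H3K27Me3 peaks covered all 300 bases of the Hoxa11, Hoxd9 and downstream Hoxd11 stretches in each of the 3 diets. Peaks covered 138 bases of the Hoxb4 stretch in RD, 164 in HFD-O304 and all 300 in HFD. For Hoxc4 they covered 190 bases in RD and all 300 in HFD and in HFD-O304. No peak touched the upstream Hoxd11 stretch in any diet, which follows from its choice as a start without a call. Hoxa11, Hoxb4 and Hoxd9 were in turn chosen for high H3K27Me3. The coverage of these stretches therefore cannot show whether the mark goes with the number of CG.

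No Hox promoter carried H3K27Ac in any diet. The count was 0 of 38 in each list, while 44% of all protein-coding genes had an H3K27Ac peak at the promoter in RD, and 49.8% and 49.3% in HFD and HFD-O304. No H3K27Ac peak fell anywhere in the 645 kb of the 4 cluster windows in any of the 3 lists. The lowest H3K27Ac pileup that was called lay at 2.40, 2.26 and 2.37 times the uniform background in RD, HFD and HFD-O304, so weaker acetylation would not have been listed. Islets hold several cell types, and in such bulk chromatin a mark carried by few cells and a mark that is weak in every cell cannot be told apart.

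H3K27Me3 showed the opposite picture. It was called at 31 of 38 Hox promoters in RD, where 6.68% of all genes had it, at 34 in HFD, where 8.51% had it, and at 36 in HFD-O304, where 8.94% had it. The 31 promoters called in RD were also called in both other diets, against 5.19% of all genes with a call in all 3. Genome-wide, H3K27Ac was also present at 27% of promoters with H3K27Me3 in RD, and at 34% and 27.4% in HFD and HFD-O304, whereas none of the Hox promoters carried both marks. Counting only peaks with a −log10 q of at least 5, 3, 16 and 19 Hox promoters were called in RD, HFD and HFD-O304, beside 1.14%, 2.27% and 2.18% of all genes.

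**Figure D1:**
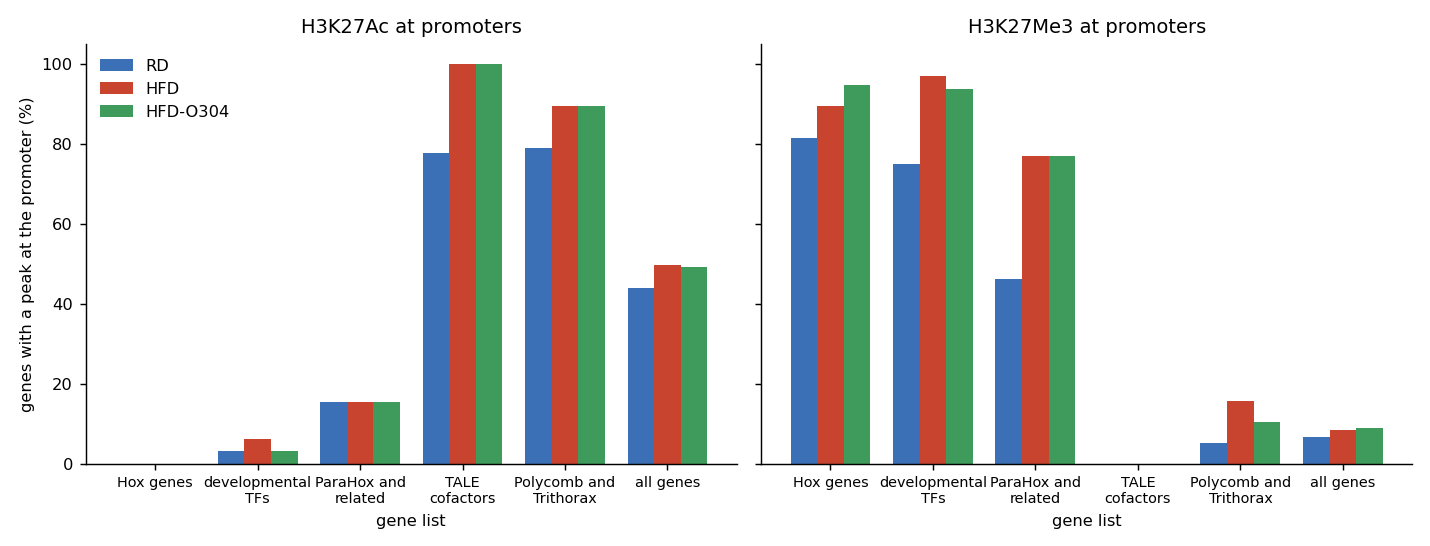
Share of genes (y axis, percent) with an H3K27Ac (left) or H3K27Me3 (right) peak within 1000 bp of the gene's 5′ end, for the Hox genes, other gene lists and all 22028 protein-coding genes, with 1 bar per diet and no error bars since each bar is 1 peak list. The Hox genes have no H3K27Ac bar and H3K27Me3 bars for 31, 34 and 36 of 38 genes.

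The Hox members whose call differed between diets were few. Hoxa4, Hoxa10 and Hoxb8 were called in HFD and HFD-O304 and not in RD, a pattern seen at 1.94% of all genes. Hoxa4, which patterns the hindbrain to neck region, had no peak in RD and 4.48 times the background in HFD, the highest level among the Hoxa promoters in that diet, and 3.74 in HFD-O304. Hoxa10, known for its role in the uterus and lumbar spine, was also without a peak in RD and read 3.92 in HFD and 3.41 in HFD-O304. At Hoxb8, which acts in spinal cord and blood progenitors, the values were 4.14 in HFD and 3.94 in HFD-O304. The level of these 3 genes in HFD lay above the middle of the Hox family. At the start of the principal (main protein-coding) transcripts, Hoxa10 and Hoxb8 did have RD peaks, of 3.03 and 3.46, so that of the 3 only Hoxa4 was without a call in RD at either start.

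Hoxb2 and Hoxb3, a neighbouring pair active in the hindbrain of the embryo, were called in HFD-O304 alone when the 5′ end of the gene was used. Their levels of 2.97 and 2.995 were the 2 lowest of the family in that diet, and the lowest level that the HFD-O304 list called anywhere was 2.97. The HFD list called nothing under 3.10, so a region of this strength could not have been listed in HFD. Only 455 bp of the Hoxb2 window and 202 bp of the Hoxb3 window were covered. At the principal starts both were called in all 3 diets, Hoxb2 with 3.197, 3.72 and 3.91 and Hoxb3 with 3.45, 4.30 and 3.89 in RD, HFD and HFD-O304.

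The remaining pair, Hoxc4 and Hoxd11, had no H3K27Me3 within 1000 bp of the gene's 5′ end in any diet. Both calls depend on the start that is used. In the GENCODE annotation, the 5′ end of 9 Hox genes lies more than 1000 bp from the nearest start of a principal transcript, by 46372 bp at Hoxc5, the largest distance, 15461 bp at Hoxc4 and 2766 bp at Hoxd11, because long transcripts that begin further upstream are assigned to the gene. At the principal start Hoxc4 reached 3.28, 3.34 and 3.39 in RD, HFD and HFD-O304. Hoxd11, a gene of the forearm and the sacral spine, reached 3.22, 4.14 and 3.75 there. With principal starts, H3K27Me3 was called at 36 Hox promoters in RD, with Hoxa4 and Hoxa9 missing, and at all 38 in HFD and in HFD-O304, beside 7.12%, 8.89% and 9.38% of all genes. With any annotated start of the gene the counts were 37, 38 and 38, beside 8.07%, 9.94% and 10.6%, and Hoxa4 in RD was then the only member without a call. The RefSeq starts of the 22 members in the start table gave 19, 21 and 21 calls, beside 6.68%, 8.36% and 8.88%. H3K27Ac stayed at 0 members under each of these choices of start, which all lie in cluster windows without an H3K27Ac peak.

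The level of the mark was expressed as the mean pileup of a peak (overlapping fragments per base) divided by the uniform background of the list, which was 8.77 (RD), 6.46 (HFD) and 6.74 (HFD-O304) fragments per base. Over the Hox promoters called, the median level was 3.16 in RD, against 3.84 in HFD and 3.77 in HFD-O304. Over all promoters called, it was 3.05, 3.61 and 3.45. In each list the Hox median thus lay above the middle of the promoters with the mark, at a level that 64.7% of them did not reach in RD, with 69.6% and 76.2% in HFD and HFD-O304.

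Within the family, Hoxd9 and Hoxd1 had the highest mean level over the 3 diets among members called in all of them. Hoxd9, a gene of the trunk and limb that belongs to the middle of the Hoxd cluster, measured 3.62 in RD compared with 4.45 in HFD and 4.38 in HFD-O304, and it was the only member whose whole window of 2001 bp was covered in RD. Hoxd1, at the opposite end of the cluster from Hoxd13, measured 3.33, 4.62 and 4.15, and its HFD value was the highest of the family in that diet. The lowest means of the Hoxd cluster belonged to Hoxd12 with 2.77, 3.51 and 3.55 and Hoxd10 with 3.19, 3.36 and 3.33. The Hoxd12 value in RD was the lowest of the 31 called there, just above the lowest level of that list, 2.74. High and low members of Hoxd were interleaved along the chromosome, since Hoxd10 and Hoxd9 are direct neighbours.

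In the Hoxa cluster, Hoxa11 and Hoxa5 were highest among members called in all 3 diets. Hoxa11, needed for kidney, limb and uterus, measured 3.39 in RD compared with 3.97 in HFD and 3.99 in HFD-O304. Hoxa5, known for its role in lung and neck, measured 3.24, 4.05 and 3.78. Hoxa6 (2.90, 3.50 and 3.40) and Hoxa7 (3.06, 3.69 and 3.52) were lowest at the 5′ end of the gene. The principal start of Hoxa7 lies 4349 bp from that end, and there Hoxa7 read 3.29, 3.69 and 3.55. Its place among the lowest is thus given for the 5′ end only. The order of the diets was the same at each of these 4 genes in that RD was lowest, while HFD and HFD-O304 changed places at Hoxa11.

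In the Hoxb cluster, Hoxb7 measured 3.06, 4.14 and 3.90 and Hoxb4, which is used in blood stem cells and the neck, 2.97, 3.91 and 4.09. Hoxb13, the prostate and tail gene that stands apart from its cluster, had 2.88, 3.26 and 3.18, and Hoxb1, a gene of the hindbrain, 2.87, 3.39 and 3.49. Hoxb13 had the lowest value of the whole family in HFD. In the Hoxc cluster, the windows of Hoxc5 and Hoxc10 overlap because their annotated 5′ ends are 647 bp apart, and both read 3.34, 4.05 and 3.75 from the same peaks. At its principal start Hoxc5 read 2.89, 3.95 and 4.06. Hoxc6, a gene of the thorax and mammary gland, had 2.97, 3.56 and 3.38, and Hoxc11 2.94, 3.62 and 3.56. The nearest principal start of Hoxc6 is 11316 bp from its 5′ end, and Hoxc6 read 2.94, 3.69 and 3.58 there. Hoxd3 and Hoxd4 likewise share a window, with 5′ ends 2 bp apart, and count as 1 measurement. At their principal starts Hoxd3 read 3.52, 3.83 and 3.57 and Hoxd4 3.34, 3.87 and 3.22. Both were thus higher in HFD than in RD there.

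**Figure D2:**
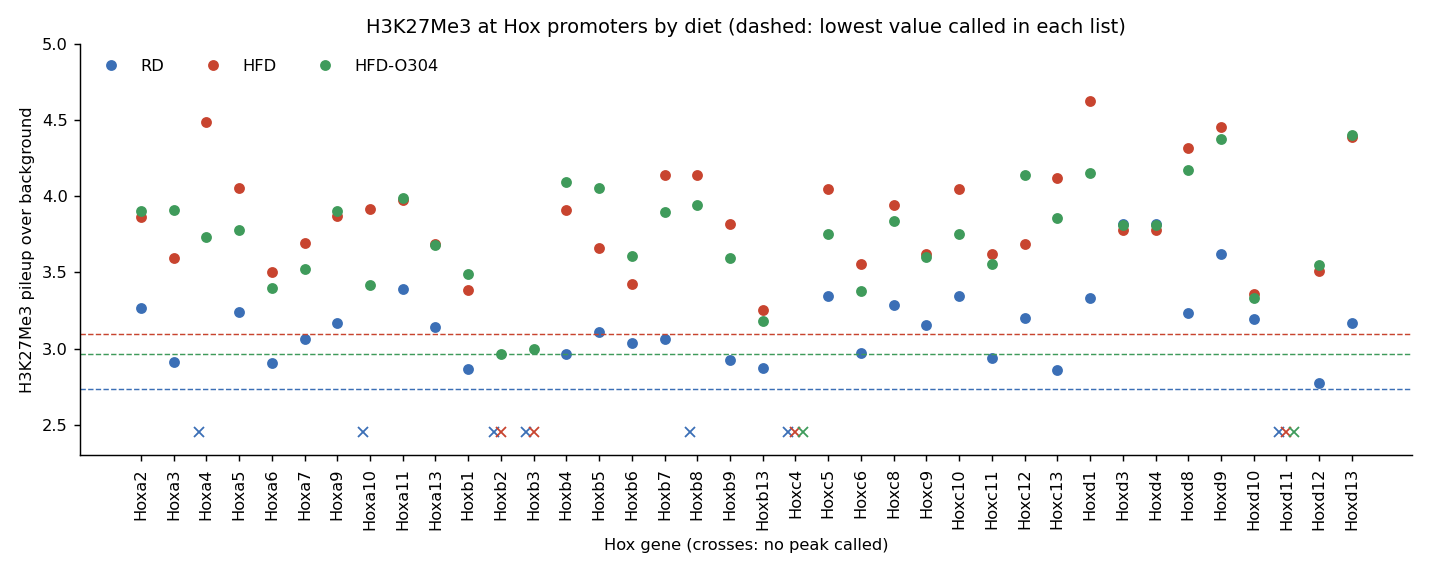
H3K27Me3 level at each of the 38 Hox promoters (y axis, pileup over the uniform background, no unit, axis cut at 2.3) in RD, HFD and HFD-O304, with 1 point per gene and peak list. Crosses mark promoters without a peak, and dashed lines the lowest value called in each list, 2.74, 3.10 and 2.97. RD points lie below the HFD points at 29 of the 31 genes called in both, the exceptions being Hoxd3 and Hoxd4, which share 1 window.

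The higher level in HFD than in RD was shared with promoters in general. Among the 31 Hox promoters called in both, 29 had a higher level in HFD, as did 96.3% of the 1230 promoters of the genome called in both. The Hox median ratio of HFD to RD was 1.21, with a range from 0.989 to 1.44, and the median over all 1230 was 1.21. For HFD-O304 over RD, 29 of 31 Hox promoters were higher, as were 92.6% of all promoters called in both, with a median ratio of 1.20 for Hox and 1.16 for all. Both of these comparisons use the same RD list. Between HFD-O304 and HFD, 13 of 34 Hox promoters were higher in HFD-O304 against 33.2% of all, and the median ratios were 0.983 and 0.965. Each list calls only values above its own limit, and the RD limit was the lowest, so ratios of called values against RD tend to exceed 1 by construction. Using a limit of 3.10 for all lists, 18 Hox promoters were left in RD, beside 2.97% of all genes, and 34 in both HFD and HFD-O304, beside 8.51% and 8.05%, and the HFD to RD median was 1.19, beside 1.17 for all promoters.

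The number of covered bases differed between the diets by more than the level did. At the promoter windows, peaks covered 27.9 kb in RD and 57.6 kb in both HFD and HFD-O304, a ratio of 2.06 for each high-fat group over RD. The same ratios were 1.69 and 1.68 over all promoter windows of the genome. HFD covered more bases than RD at 32 of 34 Hox promoters with a peak in either, against 71.5% of all such promoters, and HFD-O304 more than RD at 35 of 36, against 72.4%. The exceptions in HFD were Hoxc8, with 1257 bp in RD and 1098 bp in HFD, and Hoxd9, which was fully covered in both. The whole window was covered at 1 member in RD against 15 in HFD and 14 in HFD-O304. The share of fully covered windows over all promoters was not read, so these counts cannot be set apart from promoters in general. Over all promoters called, the median covered length was 662, 941.5 and 885 bp in RD, HFD and HFD-O304. Between HFD-O304 and HFD, 16 members had more covered bases, 11 fewer and 9 the same, and 46.9% of all promoters had more, so neither direction prevailed among the Hox genes.

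Across the full clusters the difference was larger. H3K27Me3 peaks covered 84.5 kb of the 645 kb in RD (13.1%) but 207.8 kb in HFD (32.2%) and 228.5 kb in HFD-O304 (35.4%). This made the ratio of HFD to RD 2.46 and of HFD-O304 to RD 2.70, whereas the whole lists gave 1.12 and 1.56. With the common limit of 3.10 the Hox ratios were 4.14 and 4.30 and those of the lists 1.63 and 2.06, and for peaks whose −log10 q reached 5 the Hox ratios were 6.49 and 6.74 and those of the lists 1.02 and 1.33. Peaks with at least 50% repeat-masked bases made up 67.1%, 62.5% and 67.9% of the whole lists and are nearly absent from the Hox clusters (0, 2 and 0 peaks). Among the peaks with under 50% repeat-masked bases, the corresponding ratios were 1.42 and 1.65. HFD-O304 and HFD differed little in the clusters, with a ratio of 1.10, against 1.38 for the whole lists. Among the peaks with under 50% repeat-masked bases the ratio was 1.16. When each list was reduced to the same number of strongest peaks, the Hox ratio turned to 0.949, beside 1.11 for the lists. The covered share of the Hox clusters was 25.1 times that of all chromosomes in RD, against 54.8 times in HFD and 43.5 times in HFD-O304.

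Each of the 4 clusters had more covered bases in both high-fat groups than in RD. In Hoxa the covered length was 25.7 kb in RD against 55.5 kb in HFD and 60.5 kb in HFD-O304. In Hoxb, the longest cluster, it was 20.8, 51.8 and 60.2 kb. Hoxc had the least in RD with 12.8 kb and the widest proportional gap, with 46.1 kb in HFD and 53.6 kb in HFD-O304. Hoxd had 25.2, 54.5 and 54.3 kb. As a share of the window, Hoxa and Hoxd were covered most in RD (18.6% and 18.4%) and Hoxc least (8.24%). In HFD-O304 the order was Hoxa with 43.7%, Hoxd with 39.7%, Hoxc with 34.4% and Hoxb with 28.1%.

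**Figure D3:**
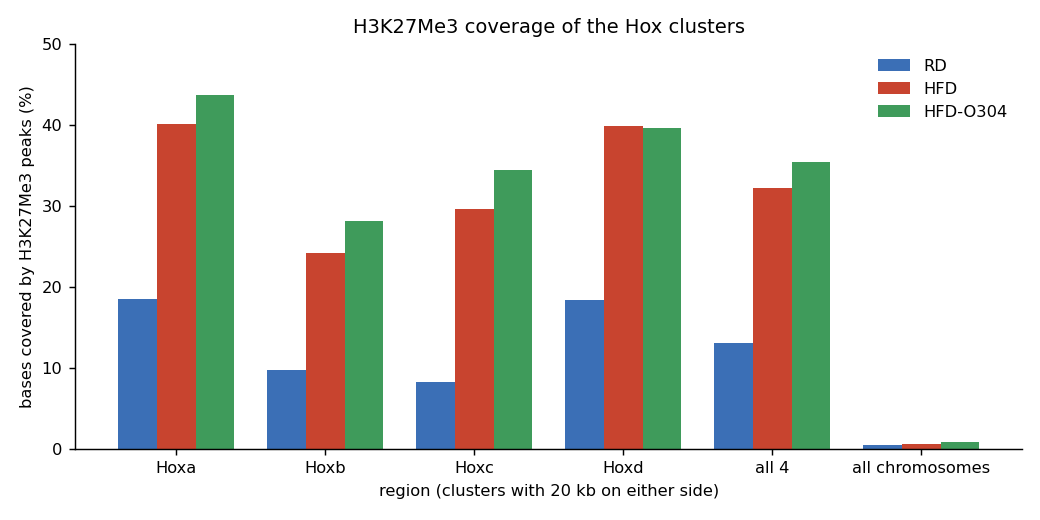
Percent of bases covered by H3K27Me3 peaks (y axis) in each Hox cluster window, in the 4 together and over all chromosomes, with 1 bar per diet and no error bars. Together the windows have 13.1% (RD), 32.2% (HFD) and 35.4% (HFD-O304), against 0.521%, 0.588% and 0.815% of all chromosomes.

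Most of the bases covered in RD were covered in the high-fat groups as well. Of the bases covered in RD, 89.0% were also covered in HFD and 92.2% in HFD-O304. In the reverse direction, RD covered 36.2% of the HFD bases and 34.1% of the HFD-O304 bases. HFD and HFD-O304 shared 164.0 kb, which is 78.9% of the HFD bases and 71.8% of the HFD-O304 bases. The clusters held 81 peaks in RD against 99 in HFD and 106 in HFD-O304, with a median length of 901, 1551 and 1911 bp, while the median length of the whole lists was 561, 619 and 633 bp. No Hox peak reached 5000 bp in RD, against 12 in HFD and 7 in HFD-O304. The whole lists held 204, 271 and 347 peaks of that length, which is 1.31%, 1.76% and 1.57% of their peaks. The 0 of 81 Hox peaks in RD is close to that share.

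The longest peak of the clusters was found in Hoxd in each diet. In RD it was 4122 bp long (chr2:74696335-74700456, GRCm38) and contained the start of Hoxd9. In HFD it was 7761 bp (chr2:74731308-74739068) and in HFD-O304 6995 bp (chr2:74734401-74741395), both between the shared start of Hoxd3 and Hoxd4 and that of Hoxd1 and overlapping each other. The strongest peaks were at the Hoxd3 and Hoxd4 start in RD (3.82) and at Hoxd1 in HFD (4.62). In HFD-O304 a 407 bp peak of 4.84 in the wide stretch between Hoxb13 and Hoxb9 (chr11:96235075-96235481) was strongest.

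Stretches without the mark were longest in RD. The longest peak-free stretch within Hoxa was 26.8 kb in RD and contained the start of Hoxa4, against 6.94 kb in HFD and 6.96 kb in HFD-O304. In Hoxb it was the stretch between Hoxb13 and Hoxb9 in every diet, with 59.8 kb (RD), 30.2 kb (HFD) and 23.1 kb (HFD-O304). In Hoxc it was 19.1 kb in RD against 5.62 kb in HFD and 7.59 kb in HFD-O304, and held the 5′ end of Hoxc4 in RD and in HFD-O304. In Hoxd the values were 10.9, 8.90 and 8.71 kb.

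**Figure D4:**
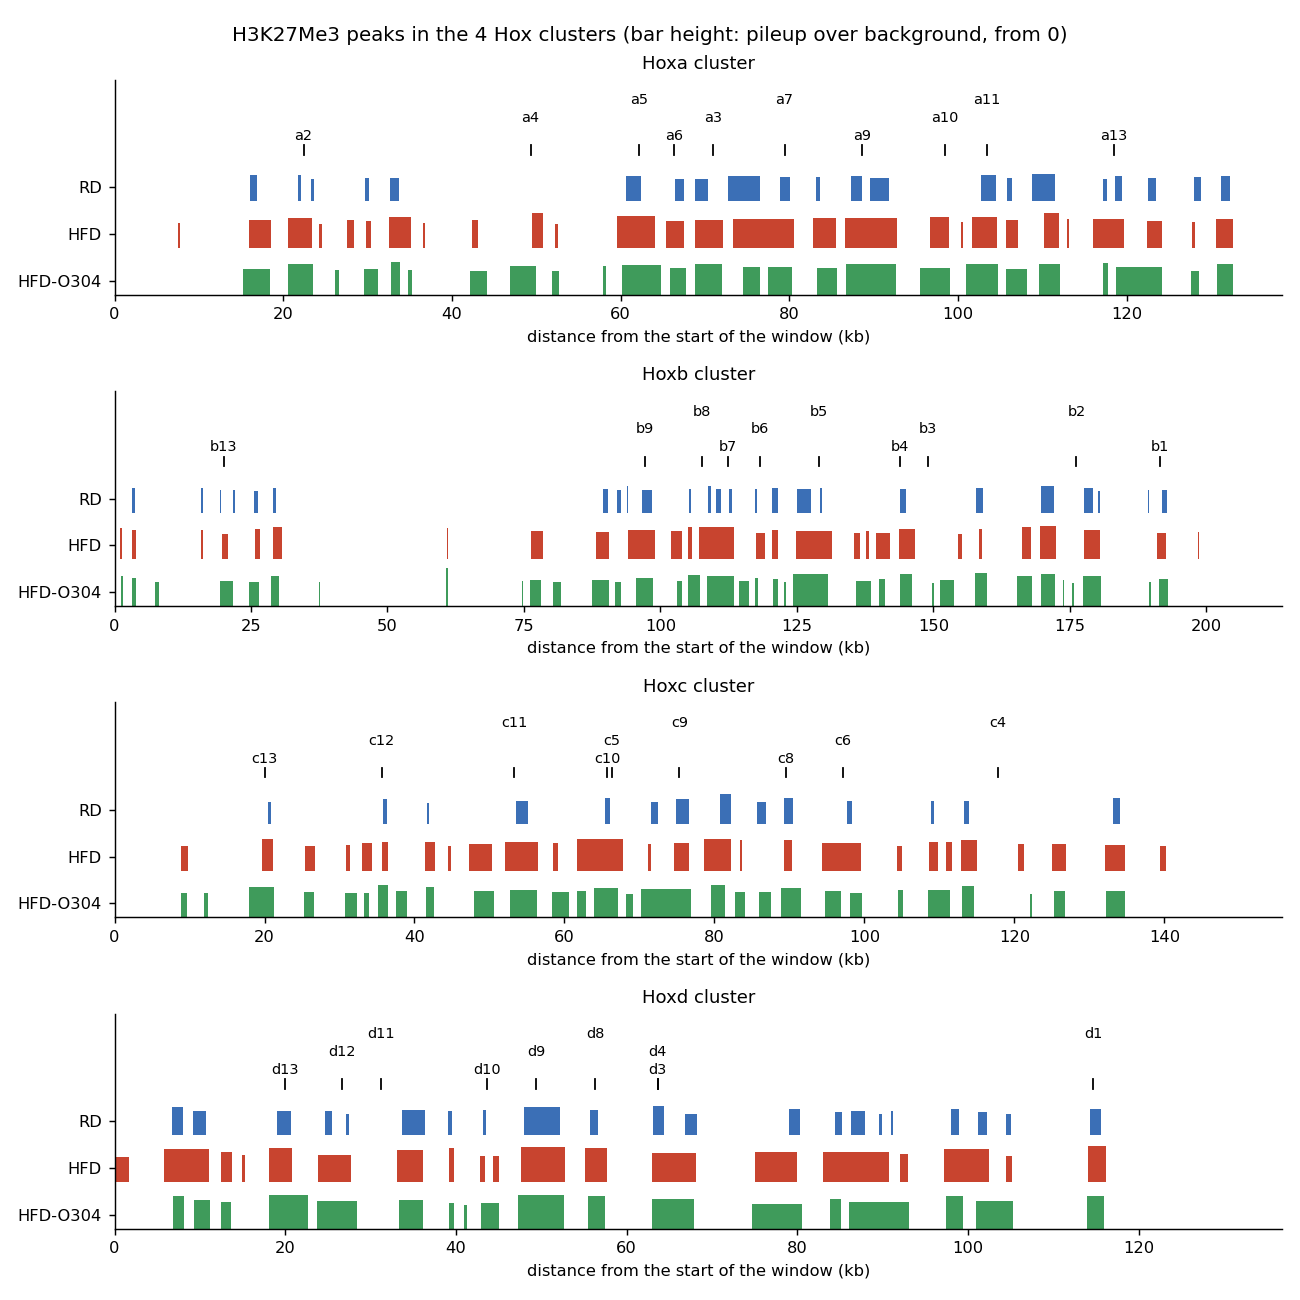
H3K27Me3 peaks along the 4 Hox cluster windows (x axis, kb from the window's start in the direction of the chromosome) in RD, HFD and HFD-O304, with bar height proportional to the pileup over background and ticks at the annotated 5′ ends of the Hox genes (a2 stands for Hoxa2). RD peaks are shorter and leave wider gaps, such as the 26.8 kb around the start of Hoxa4, while no cluster is free of peaks in any diet.

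The mark was densest between the outermost Hox genes. From the first to the last gene, 15.5% of bases were covered in RD against 38.1% in HFD and 42.2% in HFD-O304. The 20 kb margins had 5.97%, 14.3% and 14.8%. Within that core, exons of the principal Hox transcripts were covered most, at 29.9%, 59.5% and 61.0% in RD, HFD and HFD-O304. Introns followed with 18.5%, 42.3% and 48.0%, and the sequence between genes had 9.71%, 29.8% and 33.8%. The order exons, introns, between genes was the same in every diet.

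Coverage also followed the density of CG dinucleotides. The clusters held 20.9 to 29.9 CG per kb against 8.26 over the chromosomes, and 13.4% to 24.6% repeat-masked bases against 36.4%. The windows were divided into bins of 1000 bp. In the 160 bins with 30 CG or more, peaks covered 39.5% of the bases in RD against 79.7% in HFD and 82.0% in HFD-O304. In the 263 bins with 10 to 29 CG they covered 7.55%, 26.3% and 30.8%, and in the 219 bins with under 10 CG 0.647%, 5.12% and 7.37%. A peak touched 108 of the 160 densest bins in RD and 152 in each high-fat group. Neighbouring bins share peaks and are not independent.

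**Figure D5:**
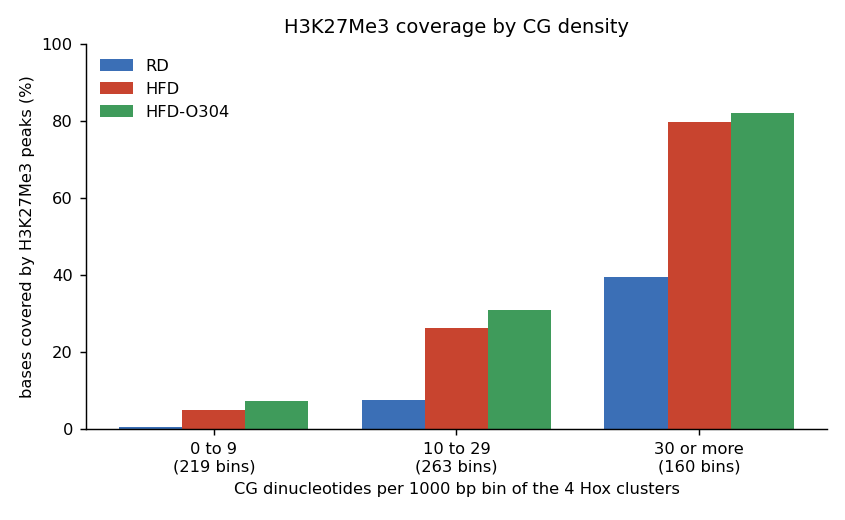
Percent of bases covered by H3K27Me3 peaks (y axis) in 1000 bp bins of the 4 Hox cluster windows, grouped by the number of CG dinucleotides in the bin (x axis), with 1 bar per diet and no error bars. In every diet the bins with 30 CG or more are covered most, from 39.5% in RD to 82.0% in HFD-O304.

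The same held at the promoters themselves. The Spearman correlation between the number of CG in the promoter window and its covered bases was 0.55 (RD), 0.39 (HFD) and 0.50 (HFD-O304) over the 38 members, which share windows at 2 pairs and all come from 1 list per diet. The 3 windows with the fewest CG were those of Hoxb2 with 20, Hoxb3 with 23 and Hoxc4 with 23, which are also 3 of the 7 members without a call in RD. The median Hox window held 88 CG, against 61 over all promoters. Hoxa4 does not follow this order, since its window had 173 CG and no peak in RD.

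Hox genes are numbered by paralogue group, from 1 at the head end to 13 at the tail end of a cluster. Genes of groups 1 to 3, expressed furthest towards the head in the embryo, had a median level of 3.26, 3.78 and 3.81 in RD, HFD and HFD-O304. Groups 4 to 8 had 3.09, 3.93 and 3.80 and groups 9 to 13, expressed towards the tail, 3.16, 3.82 and 3.68. Calls in RD were made at 5 of 7, 12 of 15 and 14 of 16 genes of these classes. The ranges of the 3 classes overlapped in each diet, and no class was free of the mark. The classes are not separate measurements. Hoxd3 (groups 1 to 3) and Hoxd4 (groups 4 to 8) share a window, which gave the highest RD value of both classes, 3.82. Hoxc5 (groups 4 to 8) and Hoxc10 (groups 9 to 13) were read from the same peaks.

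The clusters also contain microRNA genes, of which 6 lie in the 4 windows. MicroRNAs of the miR-196 and miR-10 families are embedded next to Hox genes, and miR-196 is known to repress Hox messages. Their mature 5p or 3p sequences from RefSeq are given with the seed, bases 2 to 8, in capitals, to show which of them share a seed.
miR-196a-5p: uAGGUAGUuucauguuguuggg
miR-196b-5p: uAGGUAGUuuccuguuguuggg
miR-10a-5p: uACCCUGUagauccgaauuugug
miR-10b-5p: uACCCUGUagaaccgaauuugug
miR-615-3p: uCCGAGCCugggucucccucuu

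The miR-196a and miR-196b products share the seed AGGUAGU and the miR-10a and miR-10b products the seed ACCCUGU. H3K27Me3 peaks overlapped the mature sequences of Mir196b in Hoxa in all 3 diets, at 3.18 (RD), 3.87 (HFD) and 3.90 (HFD-O304). Mir615 in Hoxc was under peaks of 2.89, 3.96 and 4.06. Mir196a-2, also in Hoxc, was under a peak in RD (2.78) and HFD-O304 (3.60) and not in HFD, and Mir10b in Hoxd in HFD (3.87) and HFD-O304 (3.22) and not in RD. Mir10a and Mir196a-1, both in Hoxb, were under none in any diet. Genes with a common seed thus differed in their calls. Peaks covered 13.1%, 32.2% and 35.4% of all bases of the cluster windows in RD, HFD and HFD-O304. The share over all microRNA genes of the genome was not read. None of the 6 was under H3K27Ac, which follows from the lack of any H3K27Ac peak in the windows.

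Genes that work with or regulate Hox genes mostly carried the opposite mark. The TALE homeodomain proteins Pbx, Meis and Pknox bind DNA together with Hox proteins. Of their 9 genes, 7 had H3K27Ac at the promoter in RD and all 9 in HFD and HFD-O304, and none had H3K27Me3. Of 19 genes of Polycomb and Trithorax proteins, which write, read or remove the marks at Hox clusters, 15 had H3K27Ac in RD and 17 in each high-fat group. The share over all genes was 44% to 49.8%. Among them Ezh2, Eed and Suz12, the core of Polycomb repressive complex 2, had it in all 3 diets. H3K27Me3 was at 1, 3 and 2 of the 19, among them Cbx8 in each diet, beside 6.68%, 8.51% and 8.94% of all genes, which is close to that share.

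Other developmental genes mostly carried the same mark as the Hox genes. Of 32 transcription factor genes of other organs, 24 had H3K27Me3 in RD and 31 and 30 in HFD and HFD-O304, beside the 6.68%, 8.51% and 8.94% of all genes, and 1, 2 and 1 had H3K27Ac. Their covered promoter bases in HFD were 1.61 times those in RD, and in HFD-O304 1.43 times, against 2.06 for Hox in both. Of 13 ParaHox and related homeobox genes, the nearest relatives of Hox, 6 had H3K27Me3 in RD and 10 in each high-fat group, beside the same shares of all genes, with 2.27 and 1.94 times the covered bases of RD. Mnx1 and Pdx1, both used in islet cells, were the 2 of the 13 with H3K27Ac, in all 3 diets, and had no H3K27Me3. Evx1 and Evx2, which adjoin the Hoxa and Hoxd clusters, had H3K27Me3 in every diet and no H3K27Ac.

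The label of pancreatic islets was checked with marker genes. H3K27Ac was at the promoter of 6, 7 and 6 of 10 islet endocrine markers in RD, HFD and HFD-O304, among them Pdx1, Mafa, Isl1, Nkx2-2 and Nkx6-1 in every list, beside 44%, 49.8% and 49.3% of all genes. Of the hormone genes, Ins1 had it in RD (2.86) and HFD (3.12) and not in HFD-O304, while Ins2, Gcg and Sst had none in any list. H3K27Ac was at 1 of 6 acinar markers (Bhlha15) and at 1, 2 and 2 of 4 duct markers. It was at none of 5 endothelial, 5 fibroblast and stellate and 5 leukocyte markers. Values that moved with the H3K27Me3 results on the Hox clusters were the share of duplicate fragments, 45.7%, 55.0% and 56.9% in RD, HFD and HFD-O304, and the number of kept fragments, which was highest in RD. The part of duplicates and depth in the difference was not tested, and with 1 list per group they cannot be told apart from diet.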

How the data were processed

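H3K27Ac and H3K27Me3 were profiled by ChIP-seq in islets on 3 diets, with 12 ChIP samples (2 per mark and diet) and 3 inputs, grouped by title. The authors mapped reads with bowtie2 to GRCm38 (Ensembl 96), merged replicates and ran MACS 2.1.2 in broad mode. Per the file headers, no control and no local background were used, the q cutoff was 0.01, 1 fragment was kept per position and the effective genome size was 1.87e+09. The inputs are not analysed here. The deposited pileup is a coverage signal, averaged over each peak. The deposited −log10 q and the deposited fold (a ratio to the background) describe peaks, and of these only −log10 q was used, as a stricter filter of at least 5.

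Pileup was divided by the uniform background, kept fragments times fragment length over genome size, so that lists of different depth share a scale. Promoter windows used GENCODE mouse release 21, and an overlap of 1 bp counted. A promoter with several peaks got their mean weighted by overlap. Composition was read from the C57BL/6J reference. Intervals were tested on simulated data, and all 2000 windows were recovered. Python 3.11.15, numpy 2.4.6 and pandas 2.3.3 were used.

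The members and lists were chosen with earlier results of these data known. Some members of the comparison lists are not reported here by name. Values are given for members whose call differed between diets and for the 2 highest and 2 lowest mean levels per cluster among members called in all 3 diets. With 1 list per group, no test between diets was made. Alternatives were a stricter q, one calling limit for all lists, lists of equal size, no repeat-rich peaks (50% or more repeat-masked), wider windows, longer overlap, no cluster margin and other starts.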

Additional observations from a re-analysis of the deposited data

How the results depend on the processing

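No H3K27Ac was found at Hox promoters or clusters under any alternative run. This was fixed in advance, since each alternative either removed peaks or read windows inside regions that held no H3K27Ac peak. Of 156 alternative values for 21 results, 132 stayed within 1.5 times (counts) or 10% (values) of the value reported, 23 moved and 1 reversed. The 132 include every H3K27Ac value, all of them 0 and unable to move. They also include the HFD values for H3K27Me3 under the common limit and the equal list size, which both came from the HFD list. Keeping only peaks with −log10 q of at least 5 left H3K27Me3 at 3, 16 and 19 Hox promoters in RD, HFD and HFD-O304 and covered 13.5, 87.8 and 91.1 kb of the clusters. It raised the RD median level to 3.82 and gave 1 member called in all diets, 11 in both high-fat groups and not RD and 15 in none. The median ratio of HFD-O304 to RD then turned to 0.998, over 3 members, 2 of which share a window. A common limit of 3.10 for all lists left 18 promoters and 50.2 kb in RD, 18 members called in all diets, 16 in both high-fat groups and not RD and 4 in none. Members without a call numbered 4 with lists of equal size, 1 with windows of 2000 bp either side, and 0 with any annotated start or with principal starts. With any annotated start 1 member was called in both high-fat groups and not in RD. RefSeq starts, an alternative chosen after seeing the data, could be read for 22 members and gave calls at 19, 21 and 21 of them, fewer because fewer members were measured. The lower Hox coverage in RD than in either high-fat group held under all 6 ways of counting bases. No paired analysis was possible because each list pools both replicates, and leaving out a replicate was not possible for the same reason. Depth limits the lists to regions of at least 2.26 (H3K27Ac) or 2.74 (H3K27Me3) times the background.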

Other observations

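The nearest H3K27Ac peaks outside the clusters lay 60.5 to 549.5 kb away, some at promoters of neighbouring genes and some at none. Beyond Hoxd, the Mtx2 promoter carried H3K27Ac in every diet, 60.5 to 60.6 kb from the last Hox gene, at 4.38, 4.37 and 3.72 times the background in RD, HFD and HFD-O304. On the other side the Lnpk promoter did so at 89.3 to 89.4 kb. Before Hoxb, the Atp5g1 promoter was the nearest in all 3 diets, at 117.8 to 118.7 kb. After Hoxb the nearest peak, at no promoter, was 87.6 to 88.3 kb away. After Hoxc it was at no promoter, 97.6 to 98.1 kb away, in the high-fat groups, and 202.7 kb away in RD. The nearest peak before Hoxa was at Skap2 in RD, 150.0 kb away, and 549 kb away, at no promoter, in both high-fat groups. These distances are descriptions of 1 list per diet.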
